A study of Mus musculus with 16 samples.

Results

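Small nucleolar RNAs (snoRNAs) were examined in RNA-seq libraries from whole mouse retinas. The genes described are those annotated with the snoRNA biotype whose mean level was at least 1 FPKM (fragments divided by gene length and by library size) over the 10 uninjected libraries. This rule selected 97 of the 1507 snoRNA genes and of the 54532 genes measured, and all 97 were also listed in the count table of the 6 injected retinas. The genes were thus chosen by their mean FPKM, so their levels in uninjected retinas are given as a description. The study used C57BL6/J mice. The uninjected groups were 18-month wildtype (n = 4), 12-month mutant (n = 3), which carries a cysteine-to-tryptophan substitution in Elovl2, and 12-month wildtype (n = 3). Elovl2 encodes an elongase of very long polyunsaturated fatty acids, and its substitution is named C234W in the design text but C34W where genotypes are labelled. At 18 months, 1 eye received 0.36 nmol of the fatty acid 24:5 by intravitreal injection (n = 3) and the fellow eye received vehicle (n = 3), and retinas were taken 5 days later. The labels describe every library as poly(A)-selected and strand-marking, and whether libraries are separate animals is not stated, so the spread behind each p-value may be technical in part.

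Most vertebrate snoRNAs are cut from the introns of host genes after splicing and are held in the nucleolus by a fixed set of proteins. C/D box snoRNAs guide ribose methylation and H/ACA box snoRNAs guide pseudouridylation, mainly of ribosomal RNA. Mature snoRNAs carry no poly(A) tail, so a poly(A)-selected library holds only what remained with the selected RNA, together with reads from unspliced host transcripts.

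The sequences shown are those of the genes on which the results below turn, read 5′ to 3′ from the GENCODE M21 transcripts of the mm10 build, with all 1507 snoRNA genes at the same coordinates in that annotation and in the FPKM table. In C/D genes the capitals mark TGATG within the first 25 bases and CTGA within the last 20 bases. In H/ACA genes they mark ACA within the last 8 bases. A gene with no capitals did not hold the complete letters of either class, though Gm22771 holds CTGA within its last 20 bases. Snora30 (chr7:127527874-127528003, + strand), Gm25970 (chr12:65056573-65056658, + strand), Gm22270 (chr5:107905177-107905308, + strand) and Gm24494 (chr3:153911610-153911690, - strand) were among the genes whose 12-month wildtype values all lay above those of the other uninjected libraries. Gm26387 (chr5:107907345-107907476, + strand) is the relative of Gm22270 in the same host gene. Snord32a (chr7:45127382-45127464, - strand) had the smallest p among the 97 genes in the comparison of 18-month wildtype with mutant retinas.
Snora30: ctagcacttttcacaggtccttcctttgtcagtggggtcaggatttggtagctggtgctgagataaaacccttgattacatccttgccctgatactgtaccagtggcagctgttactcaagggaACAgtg
Gm25970: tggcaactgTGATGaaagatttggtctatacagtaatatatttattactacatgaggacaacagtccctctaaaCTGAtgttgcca
Gm22270: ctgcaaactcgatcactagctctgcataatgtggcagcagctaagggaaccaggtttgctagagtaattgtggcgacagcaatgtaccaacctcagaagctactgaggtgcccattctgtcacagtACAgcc
Gm26387: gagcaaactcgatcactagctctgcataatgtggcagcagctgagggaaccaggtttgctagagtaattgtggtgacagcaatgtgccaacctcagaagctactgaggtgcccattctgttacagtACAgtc
Gm24494: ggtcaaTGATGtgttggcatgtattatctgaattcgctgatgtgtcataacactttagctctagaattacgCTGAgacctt
Snord32a: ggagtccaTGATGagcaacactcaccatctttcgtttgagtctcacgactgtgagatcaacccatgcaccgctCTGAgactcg

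The next sequences belong to the most abundant genes of the uninjected libraries, Snord104 (chr11:106500993-106501062, + strand), Snord91a (chr11:74905424-74905516, + strand), Gm22771 (chr11:74906109-74906199, + strand) and Snora57 (chr19:8888538-8888685, - strand). They also show the pair with the highest mean counts among these genes in the injected libraries, Gm25117 (chr10:111481493-111481636, + strand) and Gm25835 (chr11:69668852-69668995, - strand), and Snora17 (chr2:26639190-26639321, - strand) with its relative Gm23608 (chr2:10075653-10075780, - strand).
Snord104: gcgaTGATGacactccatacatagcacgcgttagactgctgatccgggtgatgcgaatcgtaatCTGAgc
Snord91a: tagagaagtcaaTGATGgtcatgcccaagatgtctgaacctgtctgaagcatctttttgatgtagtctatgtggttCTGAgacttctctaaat
Gm22771: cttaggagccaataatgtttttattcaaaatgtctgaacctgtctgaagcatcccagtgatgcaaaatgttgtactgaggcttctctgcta
Snora57: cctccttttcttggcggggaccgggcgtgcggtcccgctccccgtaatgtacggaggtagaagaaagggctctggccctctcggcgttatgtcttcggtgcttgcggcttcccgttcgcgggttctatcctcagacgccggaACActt
Gm25117: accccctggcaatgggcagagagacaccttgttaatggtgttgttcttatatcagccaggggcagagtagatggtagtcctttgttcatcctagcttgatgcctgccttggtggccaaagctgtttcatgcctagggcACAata
Gm25835: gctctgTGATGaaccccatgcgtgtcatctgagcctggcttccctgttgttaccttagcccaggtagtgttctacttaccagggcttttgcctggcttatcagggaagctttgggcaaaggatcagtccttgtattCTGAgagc
Snora17: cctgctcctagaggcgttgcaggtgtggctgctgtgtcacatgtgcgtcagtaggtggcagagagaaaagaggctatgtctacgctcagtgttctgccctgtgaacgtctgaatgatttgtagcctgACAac
Gm23608: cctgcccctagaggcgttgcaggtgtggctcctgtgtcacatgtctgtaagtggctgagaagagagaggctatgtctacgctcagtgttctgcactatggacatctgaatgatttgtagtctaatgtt

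The annotation named 21 of the 97 genes as C/D box and 8 as H/ACA box RNAs, and 65 carried only a predicted-gene name beginning with Gm. Of the genes with no stated class, 22 held the C/D letters, 25 held the H/ACA letters (ANANNA beginning between base 41 and base 91 as well as the terminal ACA) and 21 held neither set. The C/D letters were present in 42.3% of the 97 genes and in 23.7% of all 1507 snoRNA genes, and the H/ACA letters without the C/D letters in 33.0% of the 97 and 39.5% of the 1507 genes. Each motif was searched on the annotated strand only, and a match describes the letters, not a working box. Lengths ran from 52 to 246 bases with a median of 110 bases. The median was 78 bases for the annotated C/D genes and 132 bases for the annotated H/ACA genes.

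Of the 97 genes, 74 lay within introns of a gene on the same strand, 2 overlapped an exon, 14 lay inside a gene on the opposite strand only and 7 lay in no annotated gene. The exonic pair were Snord42b in Rpl23a and Gm22486 in Ptcd3, which encode a ribosomal protein and a mitochondrial translation factor. The 76 genes with a host on their own strand shared 60 hosts, 13 of which carried more than 1 of them, and 16 of the 76 lay in 11 genes for ribosomal proteins. Snora30 lay in an intron of Srcap, a chromatin remodeller, and Gm25970 in an intron of Prpf39, a splicing factor. Gm22270 and Gm26387 lay in introns of Rpl5, a protein of the large ribosomal subunit, and their sequences were 94.7% identical. Snord91a and Gm22771 shared Tsr1, a factor of small-subunit maturation, and were 69.2% identical. Besides Snora17 itself, 11 of the genes had Snora17 as their nearest named snoRNA, at 68.9% to 83.6% identity, and the sequences of Snora17 and Gm23608 above show one such pair. On the same measure, Snord55 was 62.0% identical to Snora73b and Snora17 was 66.7% identical to Snora43. The lower identities given here therefore need not mean relatedness.

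Reads from near-identical copies or from the unspliced host could not be told apart from those of the snoRNA itself. A copy of at least 95% identity existed elsewhere among the annotated snoRNAs for 7 genes. These included Snora30, whose copy Gm25133 was 98.5% identical, Snora41, whose copy Gm23723 was 97.7% identical, and the identical pair Gm25632 and Gm22192 of Prrc2b. Snora57, among the genes with the most reads, was another, and its copy Gm26132 was 95.9% identical.

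The 10 uninjected libraries held 12810558 to 30519418 recovered reads, whole reads regained from FPKM and gene length, and the 6 injected libraries held 22066668 to 25609242 counts. The 18-month wildtype libraries held 12810558 to 15909796 reads, the mutant ones 14988833 to 30519418 and the 12-month wildtype ones 18854246 to 27082456. Every 12-month wildtype library was thus deeper than every 18-month one, and read numbers given below compare unequal depths. The 5 pigment epithelium markers summed to 56.8 to 165 FPKM in 18-month wildtype, 86.7 to 94.0 in mutant and 72.2 to 109 in 12-month wildtype retinas, and the 6 lens markers stayed at or below 0.856 FPKM. The injected libraries differed from the uninjected ones in RNAs without a poly(A) tail. Levels set against a library total of 1000000 are written RPM for recovered reads and CPM for counts. Rn7sk, the 7SK RNA, made up 71589 to 110484 CPM in injected libraries and 15.1 to 80.8 RPM in uninjected ones, and Rmrp was listed at 0 in all 10 uninjected libraries. Within the uninjected libraries, 5 had more Malat1, a nuclear long noncoding RNA, at 1674 to 2748 RPM, than the other 5, at 643 to 1104. The 5 were replicates 2 and 3 of wildtype at 18 months, replicate 1 of the mutant, and replicates 1 and 2 of wildtype at 12 months.

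The 97 genes together contributed a small share of each uninjected library, and the groups overlapped. They had 34.3, 37.6, 42.8 and 31.6 RPM in 18-month wildtype retinas, 49.2, 30.5 and 31.4 in mutant retinas, and 43.3, 50.8 and 28.1 in 12-month wildtype retinas. The mean was 36.6 ± 4.84 (SD, n = 4) in 18-month wildtype, 37.0 ± 10.5 (SD, n = 3) in mutant and 40.7 ± 11.5 (SD, n = 3) in 12-month wildtype retinas. The 5 libraries with more Malat1 lay at 37.6 to 50.8 RPM, all above the other 5 at 28.1 to 34.3, and the fits below were repeated with Malat1 as a covariate. Small nuclear RNA genes lay at 33.8 to 49.1 RPM in the libraries with more Malat1 and at 16.4 to 25.1 RPM in the others. Other RNAs overlapped between these sets of libraries. Genes for small Cajal body RNAs lay at 9.60 to 19.3 RPM against 7.07 to 10.6, and Rn7sk at 22.2 to 80.8 against 15.1 to 27.6.

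**Figure D1:**
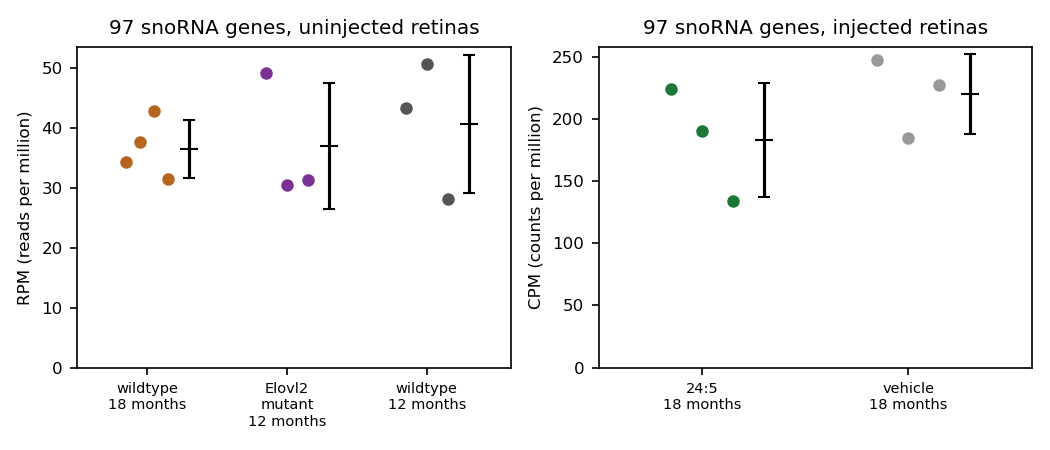
Recovered reads (RPM) or counts (CPM) from the 97 snoRNA genes in each library (points), with the mean and SD beside them, for uninjected groups (left) and injected groups (right). Uninjected libraries lie between 28.1 and 50.8 RPM and injected libraries between 134 and 247 CPM, and groups overlap within each panel.

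Few reads stood behind most of the genes. The median over the 97 genes was 2.25 FPKM, or 4.4 recovered reads per library, 52 genes had a read in all 10 libraries, 15 averaged at least 10 reads and 3 averaged at least 40. Snord104, Snora57 and Snord91a held 24.6% of the reads. A further 1074 of the 1507 snoRNA genes were listed at 0 in all 10 libraries. The group mean was at least 1 FPKM for 88 of the 97 genes in 18-month wildtype, 81 in mutant and 89 in 12-month wildtype retinas. It reached that level in all 3 groups for 70 genes and in a single group for 6 genes. Of these 6, Snord32a, Snord49b and Snord65 reached it only in 18-month wildtype, Gm23608 and Gm23706 only in mutant and Gm22781 only in 12-month wildtype retinas, so a higher value in that group follows in part from how the genes were chosen. The limit applied to the mean over 10 libraries, so further genes also met it only with a given group included. Without 12-month wildtype, Gm25970, Gm24888, Gm23034, Gm22890 and Gm24564 fell below it. Gm26202 and Gm26287 did so without mutant retinas, and Gm22778, Gm24837, Gm22888 and again Gm24564 without 18-month wildtype retinas. High values of these genes in those groups follow in part from the same choice. Just inside the limit lay Snord70 at 1.13, Gm23939 at 1.12, Gm24564 at 1.05, Gm22781 at 1.04 and Gm23608 at 1.02 FPKM. Just outside it lay Gm25185 at 0.986, Gm23615 at 0.964, Gm24346 at 0.961, Gm25973 at 0.961 and Gm25108 at 0.958 FPKM.

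Snord104, a C/D box RNA in no annotated gene, had the highest level, with a mean of 59.7 FPKM. Its values were 77.6, 24.5, 39.2 and 74.9 FPKM in 18-month wildtype retinas, 76.1, 54.6 and 86.0 FPKM in mutant retinas, and 47.1, 56.6 and 60.0 FPKM in 12-month wildtype retinas. The groups overlapped, and the 18-month wildtype group held both low and high libraries. Snord91a, a C/D box RNA of the Tsr1 intron, averaged 23.0 FPKM and ranged from 19.0 to 32.8 FPKM in 18-month wildtype retinas, from 19.6 to 26.1 FPKM in mutant retinas and from 16.2 to 25.1 FPKM in 12-month wildtype retinas. Snora57, an H/ACA box RNA lying opposite Lbhd1, averaged 17.05 FPKM over the 10 libraries. Its levels were 14.7, 15.1, 20.2 and 18.1 FPKM in 18-month wildtype retinas, 19.6, 13.1 and 10.3 FPKM in mutant retinas, and 19.1, 22.3 and 17.9 FPKM in 12-month wildtype retinas.

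The other genes among the 10 with the highest levels had means between 6.75 and 13.2 FPKM. Gm22771 (13.2 FPKM) shared the Tsr1 host, and Snord72 (9.26 FPKM) lay in Rpl37, a gene for a ribosomal protein. Snord55, a C/D box RNA, averaged 11.4 FPKM. Gm22362 (9.18 FPKM) lay in Ybx3, which encodes a cold-shock-domain RNA-binding protein, and Gm23600 (7.95 FPKM) in Rian, an imprinted noncoding RNA that hosts a snoRNA cluster. Snord42b (7.25 FPKM) and Snord7 (6.75 FPKM, in the noncoding AA465934) completed the set.

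Ageing was examined as 18-month against 12-month wildtype retinas. None of the 97 genes passed an adjusted p of 0.05 (limma on log2(FPKM + 1), Benjamini-Hochberg over 13786 genes), and the share of all genes called was 0%. The log2 fold change was above 0 for 36 genes, against 49.4% of all genes, and below 0 for 61 genes, against 50.6%, with a median of -0.09 beside -0.0014 over all genes. Unadjusted p-values under 0.05 occurred for 9 genes with lower and 1 gene with higher values at 18 months, against 1.96% and 1.69% of all genes. Groups that did not overlap were seen for 6 genes lower and 1 gene higher, against 2.22% and 1.95% of all genes. These are descriptions, since the genes were chosen with results known, and the median was 0.09 without replicate 2 and -0.31 without replicate 3 of 12-month wildtype. In whole retinas, fewer cells of a type and less RNA per cell cannot be told apart.

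Gm25970, with the C/D letters, led this order, though it met the 1 FPKM limit only with its 12-month wildtype values included. It had 0.79, 0.87, 2.17 and 0.69 FPKM in 18-month wildtype retinas, 1.38, 0.36 and 0 FPKM in mutant retinas, and 5.48, 3.54 and 4.11 FPKM in 12-month wildtype retinas. All 3 young wildtype libraries lay above every other library, on 14, 6 and 8 reads against 1 to 3 reads at 18 months and 0 to 2 reads in the mutant. The young wildtype libraries were also deeper than the 18-month ones, which FPKM but not the read numbers take into account. The log2 fold change from age was -1.37 ± 0.30 (SE; adjusted p = 0.9999, limma), rank 14 of all genes by p. Its host Prpf39 had a log2 fold change of -0.11 ± 0.22 (SE).

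Snora30, an H/ACA box RNA, showed the same order of groups. It had 1.57, 1.72, 1.92 and 1.38 FPKM in 18-month wildtype retinas, 2.73, 0.71 and 0.97 FPKM in mutant retinas, and 3.36, 5.08 and 3.74 FPKM in 12-month wildtype retinas. The 18-month values rested on 3 or 4 reads a library, the mutant values on 6, 3 and 2, and the 12-month wildtype values on 13, 13 and 11. The log2 fold change with age was -0.92 ± 0.24 (SE; adjusted p = 0.9999, limma).

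Gm22270, with the H/ACA letters, had 2.57, 3.39, 2.83 and 1.35 FPKM in 18-month wildtype retinas, 1.35, 2.57 and 1.44 FPKM in mutant retinas, and 3.57, 5.77 and 4.69 FPKM in 12-month wildtype retinas. The age groups did not overlap, and the log2 fold change was -0.70 ± 0.23 (SE; adjusted p = 0.9999, limma). Gm26387, from the same Rpl5 host, had 1.54, 4.52, 4.25 and 1.35 FPKM in 18-month wildtype retinas, 1.79, 1.87 and 3.84 FPKM in mutant retinas, and 3.57, 3.46 and 2.34 FPKM in 12-month wildtype retinas. All 3 groups of Gm26387 overlapped, with a log2 fold change of -0.17 ± 0.34 (SE) for age, and the difference between the relatives was not tested. Rpl5 itself had a log2 fold change of 0.16 ± 0.16 (SE).

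**Figure D2:**
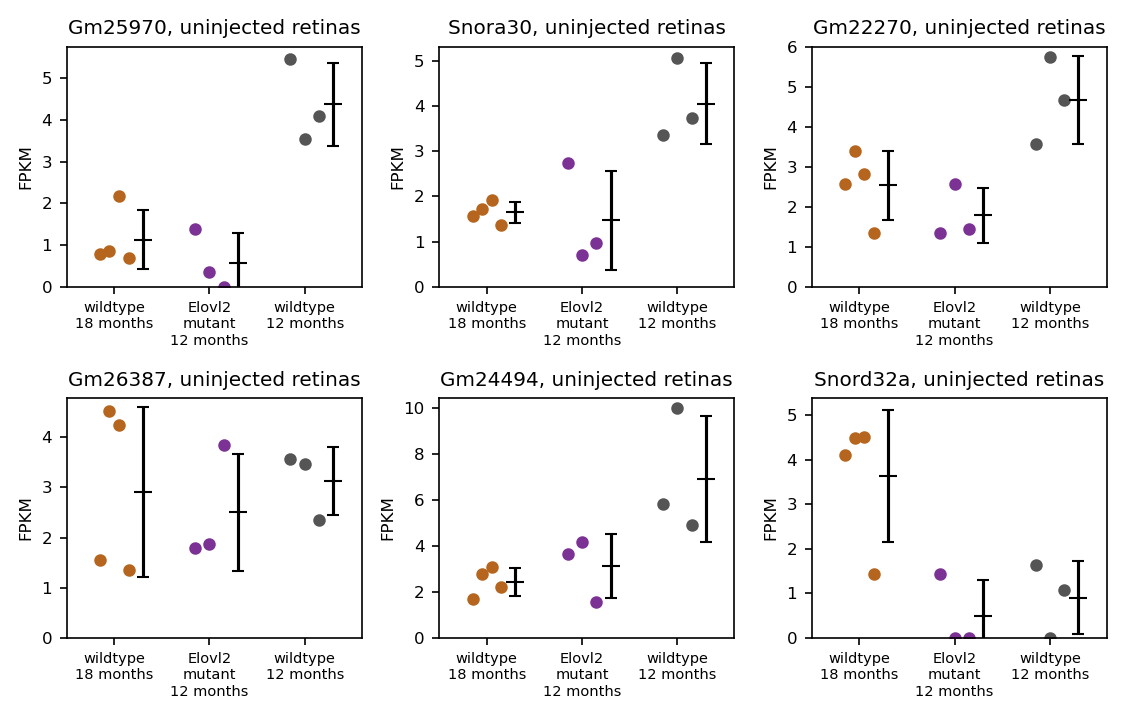
FPKM of 6 snoRNA genes in each uninjected library (points), with the mean and SD beside them, for 18-month wildtype, 12-month Elovl2 mutant and 12-month wildtype retinas. In Gm25970, Snora30, Gm22270 and Gm24494 the 12-month wildtype points lie above all others, while Gm26387 overlaps between groups. Snord32a is mostly higher in 18-month wildtype than in mutant retinas, but the lowest 18-month wildtype and the highest mutant point nearly coincide.

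Gm24494, with the C/D letters in an intron of Rabggtb (a Rab geranylgeranyl transferase subunit), had 1.68, 2.76, 3.08 and 2.21 FPKM in 18-month wildtype retinas, against 5.81, 10.03 and 4.91 FPKM in 12-month wildtype retinas. The groups did not overlap, with a log2 fold change of -1.17 ± 0.28 (SE). Gm24888 of Rpl27a (-1.10 ± 0.27, SE) and Snora41 of Eef1b2 (-0.82 ± 0.24, SE) were the other genes with lower, non-overlapping values at 18 months. Snora41 has the near-identical copy given above, and Gm24888 met the 1 FPKM limit only with its 12-month wildtype values included. In the other direction Snord32a, a C/D box RNA of the ribosomal protein gene Rpl13a, had 4.09, 4.49, 4.51 and 1.44 FPKM in 18-month wildtype retinas, against 1.62, 0 and 1.06 FPKM in 12-month wildtype retinas. One 18-month library lay within the 12-month range, and the log2 fold change was 1.33 ± 0.44 (SE). Snord32a entered the set through 18-month wildtype alone, so this value is a description. Snord65 (0.96), Snord49b (0.71), Snord88c (0.69), Gm23969 (0.62) and Snord42b (0.38) followed on the log2 scale. Snord49b was the only gene with higher, non-overlapping values at 18 months, on 1 to 6 reads a library. It had 1 read in each 12-month wildtype library and a median of 1 read at 18 months. All 18-month libraries were shallower, so 1 read gave a higher FPKM there, and the separation did not need more reads. Snord65 and Snord49b likewise reached the 1 FPKM limit only in the 18-month wildtype group.

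The Elovl2 substitution was examined at 12 months, against the same 3 wildtype libraries as the age comparison. Again none of the 97 genes passed the adjusted threshold in limma, and 0% of all genes did. The log2 fold change was above 0 for 35 genes, against 47.7% of all genes, and below 0 for 62, against 52.3%, with a median of -0.17 beside -0.0060 over all genes. Unadjusted p-values under 0.05 occurred for 8 genes with lower and 2 with higher values in mutants, against 1.11% and 1.08% of all genes. Groups did not overlap for 7 genes lower and 3 higher, against 2.92% and 3.05%. The median was 0.06 without replicate 2 and -0.42 without replicate 3 of 12-month wildtype, and 0.01 without replicate 3 of the mutant. With Malat1 as a covariate it was -0.04.

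Gm25970 had the smallest p of all 13786 genes in this comparison, Snora30 ranked 4 and Gm22270 ranked 5. The per-library values above give log2 fold changes of -1.85 ± 0.32 (SE) for Gm25970, -1.11 ± 0.25 (SE) for Snora30 and -1.04 ± 0.25 (SE) for Gm22270, each with an adjusted p of 0.9998 in limma. These 3 genes had been singled out with results of these data known, so their ranks are a description. On recovered reads, edgeR's quasi-likelihood test without a filter gave a log2 fold change of -2.84 for Gm25970, -1.49 for Snora30 and -1.26 for Gm22270, with adjusted p = 1 for each. That test called none of the 97 genes in any uninjected comparison, against 0.00599% of all genes for age, 0% for genotype and 0.00898% for 18-month wildtype against mutant. Prpf39 had a log2 fold change of -0.24 ± 0.24 (SE) and Rpl5 of 0.07 ± 0.17 (SE), while Srcap lay below the level needed for testing.

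Gm24494 had 3.65, 4.19 and 1.56 FPKM in mutant retinas, against 5.81, 10.03 and 4.91 FPKM in 12-month wildtype retinas, without overlap and with a log2 fold change of -0.95 ± 0.30 (SE). Snord8, a C/D box RNA of the chromatin remodeller gene Chd8, had 1.08, 0 and 0.58 FPKM in mutant retinas, against 3.06, 1.85 and 1.20 FPKM in wildtype retinas. Its groups did not overlap, and they rested on 0 to 2 reads a library in mutants and 3 to 10 in wildtype. Gm23301, with C/D letters in Rpl17, had a log2 fold change of -0.65 ± 0.27 (SE) with overlapping groups.

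Higher values in mutants were led by Gm26202, another gene with C/D letters in Rpl17. Gm26202 met the 1 FPKM limit only with its mutant values included, so its place is a description. It had 1.82, 2.37 and 2.92 FPKM in mutant retinas, against 0, 0.78 and 0.68 FPKM in wildtype retinas, on 2 to 5 reads a library in mutants and 0 to 1 in wildtype. Snord55, on more reads, had 13.5, 12.5 and 17.6 FPKM in mutant retinas, against 6.39, 7.07 and 11.7 FPKM in wildtype retinas. The Snord55 groups did not overlap, with a log2 fold change of 0.75 ± 0.33 (SE; adjusted p = 0.9998, limma). Gm22771 of Tsr1 had 16.9, 16.3 and 13.9 FPKM in mutant retinas, against 12.6, 12.8 and 11.7 FPKM in wildtype retinas, a non-overlapping difference of 0.32 ± 0.14 (SE) on the log2 scale. Snord42b (0.52), Snord88c (0.49) and Gm25776 (0.45) overlapped between groups.

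The hosts varied over a narrower range than the snoRNAs. Among the 73 snoRNA genes whose host on the same strand was tested, log2 fold changes of the hosts ran from -0.30 to 0.27 for genotype and from -0.39 to 0.32 for age, while those of the snoRNAs ran from -1.85 to 1.21 for genotype and from -1.40 to 1.33 for age. None of the 57 distinct hosts passed the adjusted threshold in limma in any uninjected comparison, as for 0% of all genes. Their median log2 fold change was -0.0048 for genotype and 0.0028 for age. The median SE of the snoRNA values, 0.46 for genotype and 0.43 for age, was larger than the widest host value, while single SEs ran from 0.14 to 0.71 for genotype and from 0.14 to 0.67 for age.

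**Figure D3:**
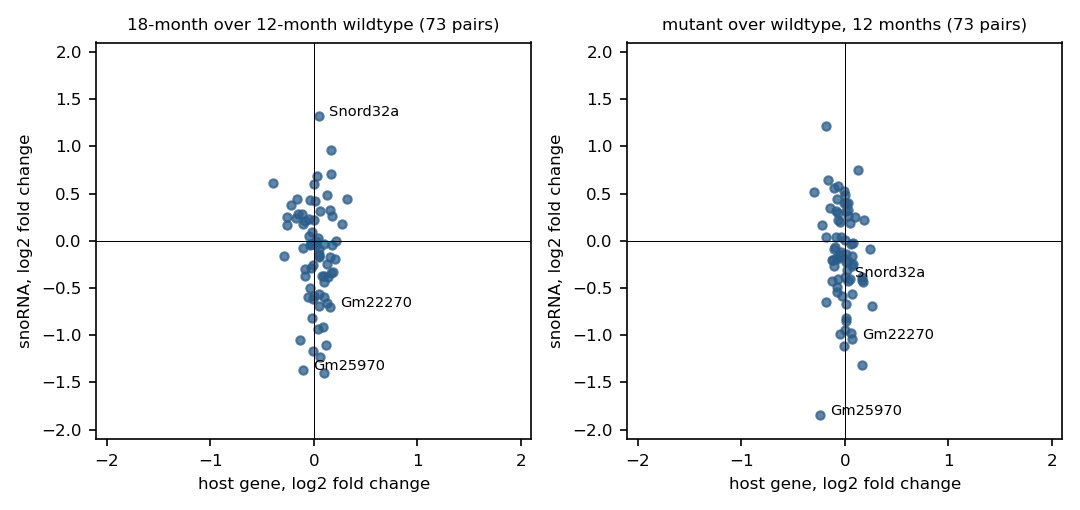
Log2 fold change of each snoRNA gene (vertical) against that of its host gene on the same strand (horizontal), for age (left) and genotype (right), with 1 point for each of 73 pairs. Hosts stay between -0.39 and 0.32 while snoRNAs spread from -1.85 to 1.33.

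The 18-month wildtype retinas were also set against the 12-month mutant retinas. No gene of the 97 passed the adjusted threshold in limma, as for 0% of all genes. The log2 fold change was above 0 for 52 genes, against 53.2% of all genes, and below 0 for 45, against 46.8%, with a median of 0.09 beside 0.0064 over all genes. Unadjusted p-values under 0.05 occurred for 4 genes lower and 1 gene higher in 18-month wildtype, against 1.1% and 1.04% of all genes. Groups did not overlap for 2 genes in each direction, against 2.37% lower and 2.1% higher.

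Snord32a had the smallest p of the 97 genes here, with 4.09, 4.49, 4.51 and 1.44 FPKM in 18-month wildtype retinas, against 1.43, 0 and 0 FPKM in mutant retinas. The lowest 18-month wildtype library (1.44 FPKM) and the highest mutant library (1.43 FPKM) held 2 reads each. Only library size separated the groups there. Reads ran from 2 to 6 a library in 18-month wildtype and from 0 to 2 in mutants. Snord32a had a log2 fold change of 1.71 ± 0.44 (SE; adjusted p = 0.999994, limma). Its place in this order is a description too, since it reached 1 FPKM only in 18-month wildtype. Gm24888, with H/ACA letters in Rpl27a, had 0.52, 0, 0.96 and 0 FPKM in 18-month wildtype retinas, against 1.82, 1.423 and 0.97 FPKM in mutant retinas, with a log2 fold change of -0.86 ± 0.27 (SE). Gm22771 had 11.2, 15.6, 9.59 and 11.1 FPKM in 18-month wildtype retinas, against 16.9, 16.3 and 13.9 FPKM in mutant retinas, and the groups overlapped. Gm25970 (0.48 ± 0.30, SE), Snora30 (0.18 ± 0.24, SE) and Gm22270 (0.34 ± 0.23, SE) overlapped between these groups.

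The remaining genes with small p-values in this comparison rested on few reads. Lower values in 18-month wildtype were given by Gm22571 (-1.72), Gm24966 (-1.11), Snord49a (-0.74) and Gm26202 (-0.73) on the log2 scale. Higher values were given by Gm22888 (1.27), Gm24401 (1.13), Gm22778 (1.01), Snord49b (0.92) and Snord8 (0.73). Gm22888 had no read in any mutant library and 0, 1, 4 and 4 reads in 18-month wildtype, so its fold change depends on the pseudocount. Snord49b had met the 1 FPKM limit through 18-month wildtype alone. Gm22888 and Gm22778 fell below that limit without 18-month wildtype, as did Gm26202 without mutant retinas.

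**Figure D4:**
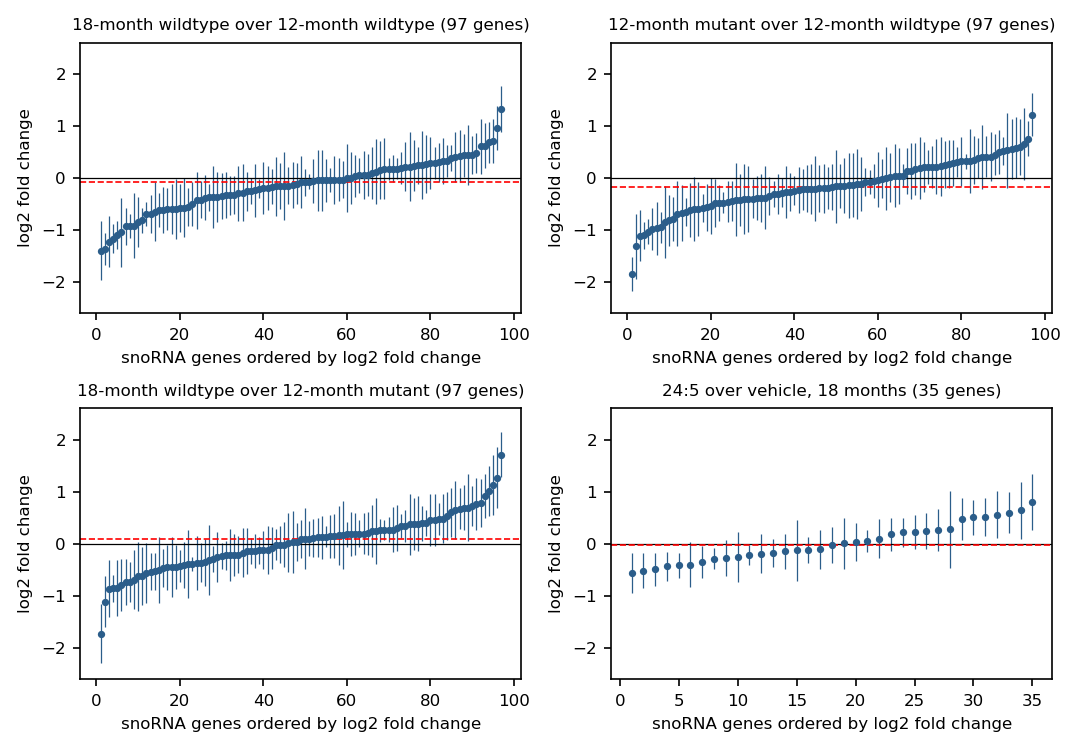
Log2 fold change with its SE for each tested snoRNA gene, ordered from lowest to highest, in the 4 comparisons, with a dashed line at the median. Medians lie between -0.17 and 0.09, and no point passed an adjusted p of 0.05.

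The proteins that build and process snoRNA particles did not pass the test in any comparison. Among all genes, 0% passed in the uninjected comparisons and 0.0115% in 24:5 against vehicle. Of the C/D core proteins Fbl, Nop56, Nop58 and Snu13, 0 of 4 passed in either direction, and the widest value was 0.17 ± 0.10 (SE) for Nop56, in 24:5 against vehicle. Of the H/ACA core proteins Dkc1, Nop10, Nhp2 and Gar1, 0 of 4 passed, with Gar1 at -0.16 ± 0.07 (SE) for age and -0.20 ± 0.08 (SE) for genotype. Of 14 assembly and transport factors, 0 passed, and Wrap53, which binds small Cajal body RNAs, had -0.17 ± 0.07 (SE) for genotype. Of 8 tested genes for intron debranching, end trimming and tailing, 0 passed, and their widest log2 fold change for genotype was -0.11 ± 0.10 (SE), of the exosome nuclease Dis3. Among noncoding host genes, 0 of 14 passed in the uninjected comparisons and 0 of 17 in the injected one, with Snhg17 at -0.26 ± 0.10 (SE) for age and -0.25 ± 0.11 (SE) for genotype.

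The injected retinas held more snoRNA reads in all for their depth, and a different order of genes. Of the 97 genes, 54 were higher in CPM of injected retinas than in RPM of uninjected ones, and 14 were at least 10 times lower or at 0. The 97 genes had 224, 191 and 134 CPM in 24:5-injected retinas, against 247, 185 and 227 in vehicle-injected retinas, with means of 183 ± 45.7 in 24:5-injected and 220 ± 32.1 in vehicle-injected retinas (SD, n = 3 each). All 1507 snoRNA genes together had 551 to 886 CPM in 24:5-injected retinas and 689 to 921 in vehicle-injected retinas. The tables were made and normalised separately, and injection, table and the RNAs without a poly(A) tail differ together between them, so levels are set side by side without a test and these differences cannot be told apart. Whether library preparation differed between the tables was not tested.

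Gm25117, with the H/ACA letters in an intron of Nap1l1 (a histone chaperone), had the highest mean count among the 97 genes in injected retinas. It had 1323, 1278 and 906 counts in 24:5-injected retinas, against 1640, 1098 and 1310 counts in vehicle-injected retinas, and averaged 53.2 CPM in injected and 0.759 RPM in uninjected retinas. The next were Gm25835 of the translation helicase gene Eif4a1, at 22.9 CPM and 0.233 RPM, and Gm25776 of Gtf2a1, a subunit of a general transcription factor, at 19.2 CPM and 0.272 RPM. In all, 11 genes averaged at least 100 counts in injected retinas, and their uninjected means were 3.6 to 81.5 reads. Snora30 was among them, at 12.2 CPM and 0.320 RPM, and 11 genes were at least 10 times higher in CPM than in RPM.

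Other genes were scarce in the injected libraries. Snord91a, at 26 to 65 reads in every uninjected library, had 3, 2 and 1 counts in 24:5-injected retinas and 0, 0 and 1 counts in vehicle-injected retinas. Gm22771, from the same host, had 3, 3 and 1 counts in 24:5-injected retinas and 6, 1 and 4 in vehicle-injected retinas. A further 11 genes had 0 counts in all 6 injected libraries. Of these, 8 were among the 14 genes inside a gene on the opposite strand, 3 were among the 7 in no annotated gene, and none was among the 74 intronic genes. The 11 genes averaged 1.9 to 6.1 reads in the uninjected libraries. Gm22478, opposite Snrnp70, averaged 16.4 uninjected reads and had 1 count in all injected libraries together. The strand setting of the counting is not given in the sources used here, and its part in this difference was not tested.

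**Figure D5:**
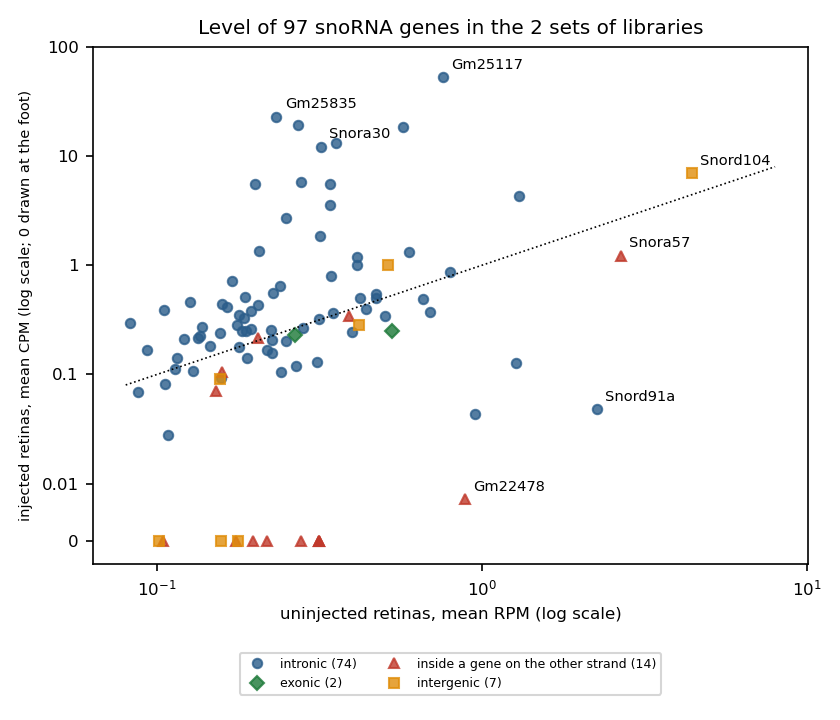
Mean level of each of the 97 snoRNA genes in injected retinas (vertical, CPM, log scale with 0 drawn at the foot) against uninjected retinas (horizontal, RPM, log scale), with symbols for where the gene lies and a dotted line of equal level. Intronic genes such as Gm25117 and Gm25835 lie far above the line, and all 11 genes at 0 lie on the opposite strand of a gene or in no annotated gene.

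The fatty acid 24:5 was compared with vehicle in these injected retinas. Of the 97 genes, 35 passed the filter on low counts and none passed an adjusted p of 0.05 (edgeR's quasi-likelihood test, Benjamini-Hochberg over 17466 genes), against 0.0115% of all genes. No unadjusted p was under 0.05, against 1.44% of all genes higher and 5.16% lower, and the smallest was that of Gm25835. DESeq2 on all genes called none of 86 snoRNA genes either, against 0.845% of all genes. The log2 fold change was above 0 for 17 genes, against 50.8% of all genes, and below 0 for 18, against 49.2%, with a median of -0.02 beside 0.0028 over all genes. The groups overlapped for all 35 genes, against 4.82% of all genes without overlap and higher and 6.77% without overlap and lower. Fellow eyes could not be matched from the labels.

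Gm25835 had 662, 455 and 326 counts in 24:5-injected retinas, against 651, 524 and 638 counts in vehicle-injected retinas, and a log2 fold change of -0.42 ± 0.24 (SE; adjusted p = 0.904, edgeR). Gm25776 (-0.49), Gm25107 (-0.51), Gm22748 (-0.44), Gm23297 (-0.57) and Gm25117 (-0.29) followed on the log2 scale. In all 6 of these genes replicate 3 was the lowest of the 24:5-injected libraries. Snord7 (0.80), Snord53 (0.60), Snord32a (0.56), Snora17 (0.51), Gm24494 (0.51) and Gm24966 (0.47) had the smallest p-values of those with higher means in 24:5-injected retinas. Snord53, a C/D box RNA of Wdr43, had 14, 19 and 15 counts in 24:5-injected retinas, against 14, 9 and 7 counts in vehicle-injected retinas.

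The genes that separated the uninjected groups gave no such separation here. Snora30 had 377, 306 and 179 counts in 24:5-injected retinas, against 321, 266 and 294 counts in vehicle-injected retinas. Gm22270 had 39, 25 and 31 counts in 24:5-injected retinas, against 27, 29 and 21 counts in vehicle-injected retinas. Gm25970 had 10, 4 and 4 counts in 24:5-injected retinas, against 3, 1 and 4 counts in vehicle-injected retinas, too few to pass the filter. Markers of other tissues also differed between injected libraries. The 6 lens markers summed to 38.3 to 469 CPM in 24:5-injected and 91.1 to 1344 in vehicle-injected retinas. The 6 microglia and macrophage markers summed to 30.5 to 68.1 CPM in 24:5-injected and 99.6 to 159 CPM in vehicle-injected retinas, and the part of either list in the snoRNA values was not tested.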

How the data were processed

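Per the file headers, the authors deposited FPKM values per gene for the uninjected retinas, with gene length and coordinates, and raw read counts per gene for the injected retinas. HISAT2 2.2.1, featureCounts 2.0.6, DESeq2 1.42.0 and mm10 are named in the submitters' processing notes. For the annotation release, multi-mapping reads and strand setting, the choice is not given in the sources used here. FPKM times gene length, divided by its smallest value above 0 in each library, gave whole numbers (within 0.02) for 99.95% of values above 0, and these recovered reads are printed. FPKM values were tested with limma 3.58.1 (trend, robust; R 4.3.3) on log2(FPKM + 1), for genes with a mean of at least 1 FPKM, with 3 groups in 1 fit. On this scale, changes of low genes are understated. The deposited counts went into edgeR 4.0.16 (quasi-likelihood test, two-sided, TMM, filterByExpr). Identity was computed with edlib 1.3.9.post1. Adjusted p-values are Benjamini-Hochberg, with a threshold of 0.05. Steps were tested on simulated data in which the changed genes had more reads than most of these snoRNA genes. That check therefore does not cover counts as low as theirs. The snoRNA genes and the gene lists were chosen with earlier results of these data known. Genes named were the 10 highest by level, the 6 smallest p per direction in each comparison, Snora30, Gm25970 and Gm22270, the 5 on each side of the level limit, up to 4 per list, their hosts, and genes chosen after their values were seen (Gm26387, Gm22486, Gm22478, copies and the highest injected counts). Alternatives were another pseudocount, no filter, count tests on recovered reads, other normalisation, a read minimum, a replicate block and leaving out each library. Some marker and host genes are not reported here.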

Additional observations from a re-analysis of the deposited data

Results flagged for a closer look

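Within the 4 libraries of 18-month wildtype retinas, 1 library stood far from the other 3 for 5 of the 40 sets of values checked, which were the named snoRNA genes and the summed snoRNA shares, and chance flags about 1 in 20. Gm22571 had 3.88 FPKM in replicate 1 and was listed at 0 in the other 3 libraries, so it would have stood apart at any value above 0 and the chance rate does not apply to it. Snord49b had 5.66 FPKM and Snord72 had 15.1 FPKM in replicate 1, in both cases the highest of the group. Gm25970 had 2.17 FPKM in replicate 3, still below all 12-month wildtype values. The lowest and the median value of Snord49b and of Gm25970 were both 1 read in this group. The chance rate may therefore not apply to these genes either. Snord32a had 1.44 FPKM in replicate 4, the lowest of the group.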

How the results depend on the processing

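In all 62 alternatives of the 4 comparisons, 0 snoRNA genes passed an adjusted p of 0.05, by limma, edgeR or DESeq2. In the main fits 0% of all genes passed in the uninjected comparisons and 0.0115% for 24:5. The count of 0 therefore says little about snoRNA genes in particular. The 48 log2 fold changes of snoRNA genes ranked by p kept their direction in 627 alternatives. These genes were picked for small p in the same libraries, so the kept direction follows in part from that choice. The median log2 fold change of the snoRNA genes moved by less than 1 SD between libraries (0.36 in uninjected, 0.28 in injected retinas) but changed sign in some. With each library left out in turn it ran from -0.31 to 0.09 for age, from -0.42 to 0.06 for genotype, from -0.08 to 0.26 for 18-month wildtype against mutant and from -0.20 to 0.17 for 24:5 against vehicle. It was 0.05 for age over the 15 genes that passed the filter in edgeR on recovered reads, 0.04 for genotype over the 15 genes with at least 10 reads, -0.02 for 18-month wildtype against mutant with Malat1 as a covariate, and 0.11 for 24:5 with DESeq2 or without a filter. The causes of these changes were not tested.

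The Malat1 covariate, the exclusion of genes on the opposite strand of a gene, the exclusion of Rn7sk, Rpph1 and Rmrp, and edgeR without a filter were chosen after seeing the data. The labels do not say whether replicate numbers match animals or eyes, and in no comparison did every same-numbered pair of libraries correlate positively. The correlations ran from -0.47 to 0.51 in uninjected retinas and were 0.40, -0.20 and 0.42 for 24:5 against vehicle. With so few libraries in a group, they cannot decide whether the numbers mark pairs. The main fits did not take the numbers as pairs, which leaves fellow eyes unmatched. With the replicate block the medians were -0.04 for age, -0.17 for genotype, 0.14 for 18-month wildtype against mutant and -0.05 for 24:5, and 88 rather than 2 of all genes were called for 24:5. The snoRNA share averaged 37.96 RPM in uninjected libraries and 48.5 over every snoRNA gene. In injected libraries it averaged 201 CPM, 148 without Gm25117 and 750 over every snoRNA gene. Leaving out 1 library moved these means to 36.5 to 39.1 and 192 to 215. Low counts limit the precision, since most genes rested on fewer than 10 reads a library.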
